A study of Danio rerio with 6 samples.

Results

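Integrin, laminin, nidogen, agrin and perlecan genes were examined in hair cells and surrounding cells of the adult zebrafish inner ear. The genes were taken by symbol, as those that begin with itga, itgb and a digit, lam with a, b or c and a digit, or nid1 or nid2, together with agrn and hspg2. There were 55 such genes among the 31387 of the table. They comprised 23 integrin alpha, 11 integrin beta and 13 laminin chain genes, together with 6 genes of nidogen, agrin and perlecan. The other 2, itgb1bp1 and ITGB1BP2, encode proteins that bind an integrin tail and are not integrins.

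Integrins are receptors in the cell membrane made of an alpha and a beta chain, and they couple the matrix outside a cell to the actin or keratin filaments inside it. Laminins are secreted trimers of an alpha, a beta and a gamma chain that form the first sheet of a basement membrane. Nidogen, agrin and perlecan are further basement membrane proteins that bind laminin. In the inner ear the sensory epithelium rests on a basement membrane that the supporting cells touch, whereas hair cells sit above the supporting cells and do not reach it.

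Every sample held 2000 cells pooled from the lagena, utricle and saccule of female fish aged 11 to 13 months. Hair cells carried green fluorescent protein from the pou4f3:GAP-GFP transgene, in which the promoter of the hair cell transcription factor gene pou4f3 drives a membrane-bound marker, and this group had 2 biological replicates. Surrounding cells were taken as cells without fluorescence, formed a mixed population and had 1 sample, whose name also holds WT, a term the labels do not explain. The name of hair cell replicate 1 begins like that of the surrounding cells, and the name of replicate 2 differs, so that differences in preparation and the replicate cannot be told apart. Each sample was sequenced as 2 technical replicates. Their reads differed significantly in 5.60% to 5.85% of genes (chi-square p under 0.05), close to sampling noise, so a technical pair counted as a single sample.

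Hair cell replicates 1 and 2 had 31902175 and 102357841 mapped reads, and the surrounding cells had 34348634. Levels are RPKM, reads of a gene divided by the length of its model and by the mapped reads of its technical replicate. For pou4f3 the level was 152 and 84.0 RPKM in hair cells, against 0.146 RPKM in the surrounding cells. All of the 12 hair cell markers examined were called higher in hair cells, and all 10 markers of keratin epithelium were called lower. Over all genes tested 17.7% were called higher and 18.0% lower. The marker lists were chosen with earlier results of these data known, and pou4f3 is among the 12. These counts are therefore no independent check of the samples. Summed over the lists, hair cell markers had 21755 and 20168 RPKM in hair cells against 18.4 RPKM, and keratin epithelium markers had 510 and 586 RPKM against 12875 RPKM. The surrounding cell sample also held higher summed levels of fibroblast, endothelial, leukocyte, thrombocyte, Schwann cell and muscle markers than either hair cell replicate. Some of these sums rest on few genes. Without cd74a and cd74b the leukocyte sums were 34.6 and 25.3 RPKM in hair cells against 24.9 RPKM. With lyz left out too, they were 3.17 and 3.12 RPKM against 24.2 RPKM. In the surrounding cells pmp22a made up 112 of the 206 RPKM of Schwann cell markers, and thbs1b 126 of the 140 RPKM of thrombocyte markers. Mitochondrial genes made up 22.2% and 19.7% of the summed RPKM in hair cells, against 9.56% in the surrounding cells.

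Most of the genes were low in hair cells. Of the 55, 16 and 15 reached 1 RPKM in the hair cell replicates and 35 did in the surrounding cells. Levels of at least 10 RPKM were found for 3 genes in each hair cell replicate, agrn, itgb1bp1 and itga2.3, and for 8 genes in the surrounding cells. Summed over all 55 genes, the level was 89.5 and 80.2 RPKM in hair cells and 222 RPKM in the surrounding cells. The surrounding cells had more than both hair cell replicates for 43 genes and less than both for 7. Of these, 13 and 3 were among the 19 genes that stayed below 1 RPKM in every sample. Among all genes of the table that reached 1 RPKM in a sample, 39.1% had more in the surrounding cells than in both hair cell replicates. In such bulk samples fewer cells that express a gene and less RNA of it per cell cannot be told apart.

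Differences are log2(RPKM + 1) of hair cells minus that of surrounding cells, a scale that shrinks the change of low genes. A gene was tested by limma where at least 1 sample reached 1 RPKM, and was called at an adjusted p under 0.05 with a difference of at least 1 in either direction. Of the 55 genes, 36 were tested. Of these, 2 were called higher in hair cells, itga2.3 and itga6a, 21 were called lower and 13 were not called. Over all 15803 genes tested, 35.8% were called, 17.7% as higher and 18.0% as lower. Of the 55 genes, 54 were above 0, with a median difference of -0.69, against -0.05 over the 26520 genes of the table above 0. The median over those of the 55 that passed the filter was -1.20, against 0.15 over all genes tested. A rule of size asked for a difference of at least 1 on the log2(RPKM + 1) scale, in the same direction, against each hair cell replicate. It also asked for 1 RPKM or more in the mean of the higher group, and it took 3 genes as higher and 23 as lower. Over all genes tested it took 18.6% as higher and 18.0% as lower. These counts were the same with either hair cell replicate alone.

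The filter bears on these counts, because a gene below 1 RPKM in both hair cell replicates was tested only where the surrounding cells were high. That held for 17 of the 36 genes, of which 15 were called lower. Among all genes tested at such hair cell levels, 69.3% were called lower. Of the 19 genes that reached 1 RPKM in a hair cell replicate, 2 were called higher and 6 lower, itga6b, itgb1a, itgb1b.1, itgb2, itgb4 and lamb1a. At that level 21.3% of all genes tested were called higher and 7.69% lower.

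**Figure D1:**
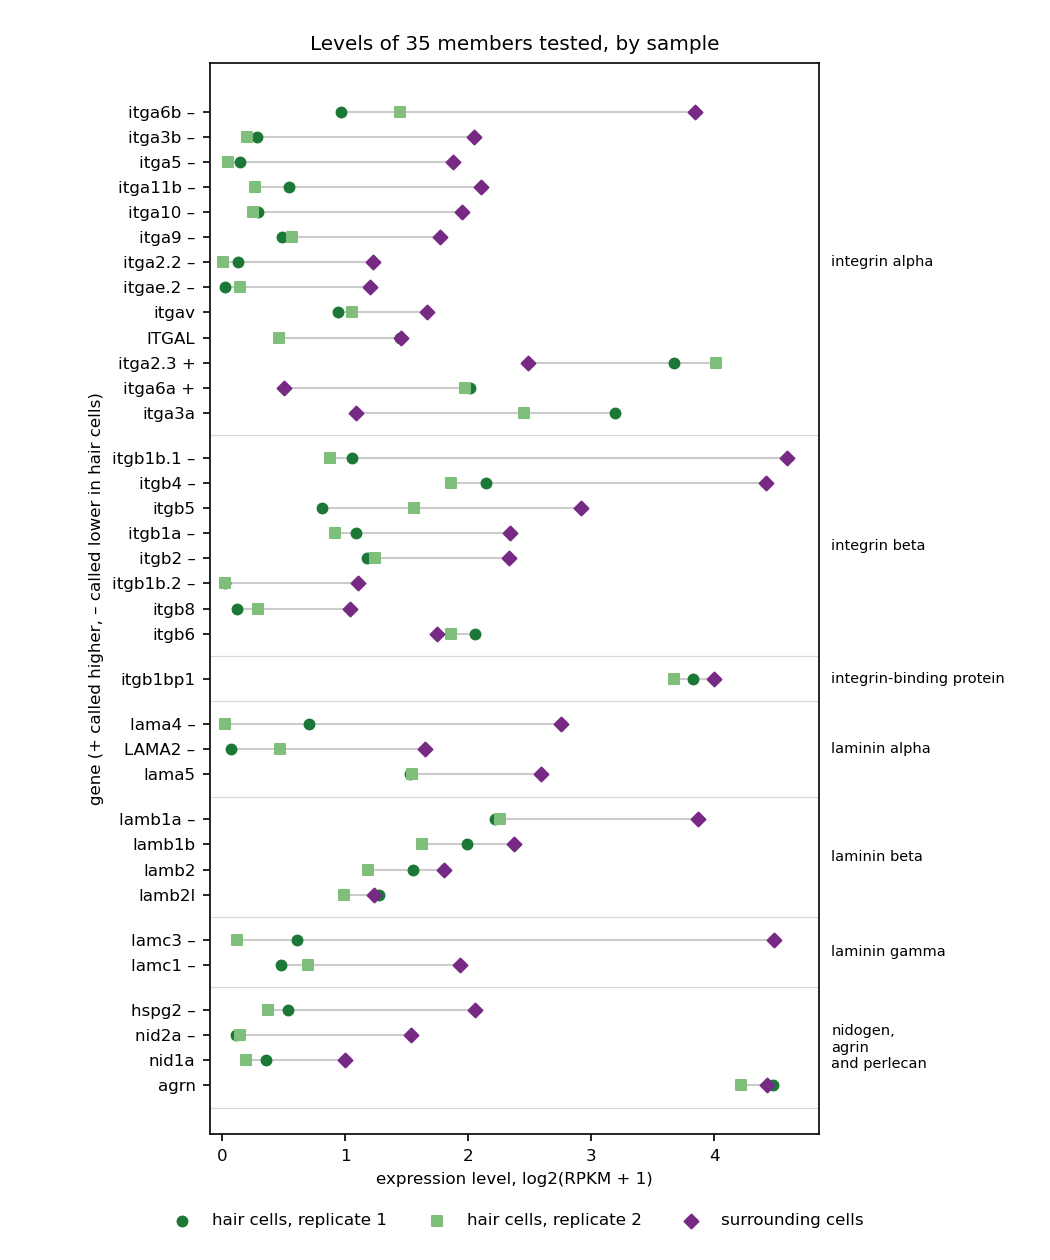
Levels of 35 of the genes tested, on the horizontal axis as log2(RPKM + 1), with circles and squares for the 2 hair cell replicates, diamonds for the surrounding cells (each the mean of 2 technical replicates) and a grey line over the range of each gene. The diamond lies to the right of both hair cell points for most genes, and to the left for itga2.3, itga6a, itga3a and, on the deposited scale but not after median-ratio scaling, itgb6.

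The integrin alpha chains, which set much of the ligand choice of the receptor, held all of the genes with a call in favour of hair cells. Of 13 tested, 2 were called higher, 8 lower and 3 were not called, with a median difference of -1.16, or -0.50 over all 23. Over all genes tested 17.7% were called higher and 18.0% lower. Of the alpha chain genes called lower, only itga6b reached 1 RPKM in a hair cell replicate. The others were tested only because the surrounding cells reached 1 RPKM. At such hair cell levels 69.3% of all genes tested were called lower. The summed level of the class was 28.7 and 27.9 RPKM in hair cells and 43.4 RPKM in the surrounding cells. The surrounding cells had more of 16 and less of 4 of the 23 than both hair cell replicates.

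The gene itga2.3 (ENSDARG00000086838, chromosome 10) is named for the alpha chain of a collagen and laminin receptor. It had 11.7 and 15.2 RPKM in hair cells and 4.59 RPKM in the surrounding cells. Both hair cell replicates thus lay above the surrounding cells, by 2.93-fold on average, and the log2 difference was 1.36 (SE 0.28, limma adjusted p = 0.0358). It was the integrin alpha gene of highest level in both hair cell replicates, with 40.9% and 54.3% of the summed level of the class, against 10.6% in the surrounding cells. Its call was lost when the samples were rescaled by median ratios (adjusted p = 0.0529). The call was also lost with a pseudocount of 5 RPKM, without the filter on low values and with technical replicate 1 alone. Its gene model held 1713 bases, against 3390 to 6534 for the other alpha chain genes with reads except itgae.1 and ITGA6 (4 of 4). It has neighbours of the same name on chromosome 10, so that the split of reads between them is uncertain. The neighbour itga2.2 had 0.092 and 0.0058 RPKM in hair cells and 1.34 RPKM in the surrounding cells, and was called lower (difference -1.16, SE 0.12, adjusted p = 0.0103). No sample had a read of itga2.1.

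The laminin-binding chain of the itga6 genes showed opposite calls in its 2 copies. The level of itga6a (ENSDARG00000042282, chromosome 9) was 3.03 and 2.92 RPKM in hair cells and 0.418 RPKM in the surrounding cells. The hair cell replicates were close to each other and 7.12-fold above the surrounding cells on average (difference 1.49, SE 0.24, adjusted p = 0.0227). The copy itga6b (ENSDARG00000069946, chromosome 1) had 0.955 and 1.73 RPKM in hair cells and 13.3 RPKM in the surrounding cells. It lay below the surrounding cells in both replicates, by 9.93-fold on average (difference -2.63, SE 0.35, adjusted p = 0.0153). Of the summed level of the 2 copies, itga6a made up 76.1% and 62.8% in hair cells, against 3.04% in the surrounding cells. The difference of itga6a fell short of a call with a pseudocount of 5 RPKM, and that of both copies without the filter on low values. The related itga6l stayed between 0.0239 and 0.0815 RPKM, and ITGA6 (4 of 4) had 1 read in hair cell replicate 1 and none elsewhere.

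The itga3 genes, whose product also binds laminin, had the same layout with a weaker test. The copy itga3a (chromosome 3) had 8.12 and 4.47 RPKM in hair cells and 1.12 RPKM in the surrounding cells. Both replicates were above the surrounding cells, but they were 1.82-fold apart, and the difference of 1.74 (SE 0.44, adjusted p = 0.0545) was not called, although it met the rule of size. The copy itga3b (chromosome 12) had 0.213 and 0.150 RPKM in hair cells and 3.14 RPKM in the surrounding cells, and was called lower (difference -1.81, SE 0.16, adjusted p = 0.0084). Of the summed level of the 2 copies, itga3a made up 97.4% and 96.8% in hair cells, against 26.3% in the surrounding cells.

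The other alpha chains called lower included chains of fibronectin and collagen receptors. The gene itga5, for the chain of the main fibronectin receptor, had 0.103 and 0.0321 RPKM in hair cells and 2.67 RPKM in the surrounding cells (difference -1.78). The collagen receptor genes itga10 and itga11b had 0.191 to 0.452 RPKM in hair cells, and 2.85 and 3.30 RPKM in the surrounding cells (differences -1.68 and -1.70). These 3 genes had 19 to 100 reads in each hair cell replicate and 502 to 531 in the surrounding cells. They were below 1 RPKM in both hair cell replicates and were tested only because the surrounding cells reached 1 RPKM. The gene itga9, for the chain of a receptor for tenascin and other matrix proteins, had 0.403 and 0.481 RPKM against 2.41 RPKM (difference -1.24). The chain of itgae.2 is named for an integrin of lymphocytes within epithelia in mammals, and it had 0.013 and 0.103 RPKM against 1.30 RPKM (difference -1.12). Adjusted p lay between 0.0078 and 0.0169 for these 5 genes, and itga9 and itgae.2 too were tested only because the surrounding cells reached 1 RPKM.

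The 2 remaining tested alpha chains were not called. The gene itgav, for the chain shared by several receptors of matrix proteins with an RGD motif, had 0.919 and 1.07 RPKM in hair cells and 2.17 RPKM in the surrounding cells (difference -0.67, SE 0.21, adjusted p = 0.0898). The gene ITGAL, for the alpha chain of a leukocyte integrin, had 1.73 and 0.374 RPKM in hair cells and 1.73 RPKM in the surrounding cells. The hair cell replicates were 4.61-fold apart and the groups met at the level of replicate 1 (adjusted p = 0.480).

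The integrin beta chains, which carry the tail that binds the adaptor proteins inside the cell, were lower as a class in hair cells. Of 8 tested, none was called higher, 5 were called lower and 3 were not called, with a median difference of -1.23, or -1.09 over all 11. Over all genes tested 18.0% were called lower. Of the 5, only itgb1b.2 was below 1 RPKM in both hair cell replicates. Summed over the class, the level was 11.1 and 10.6 RPKM in hair cells and 63.3 RPKM in the surrounding cells. The surrounding cells had more than both hair cell replicates for 10 of the 11 genes, the exception being itgb6.

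The beta chain that pairs with most laminin, collagen and fibronectin receptor alpha chains is encoded by the itgb1 genes. Of these, itgb1b.1 (ENSDARG00000053232, chromosome 2) had 1.08 and 0.835 RPKM in hair cells and 23.0 RPKM in the surrounding cells. It was the gene of highest level among the 55 in the surrounding cells, where it stood 24.1-fold above the mean of hair cells (difference -3.62, SE 0.28, adjusted p = 0.0076). The copy itgb1a (chromosome 24) had 1.12 and 0.886 RPKM in hair cells and 4.07 RPKM in the surrounding cells, and was also called lower (difference -1.34, SE 0.25, adjusted p = 0.0296). Levels of the 2 copies were thus alike in hair cells, and 36.4% and 6.43% of the class in the surrounding cells. The neighbour itgb1b.2, also on chromosome 2, had 1 and 3 reads in hair cells and 90 reads in the surrounding cells. Its level was 0.0139 and 0.0130 RPKM against 1.15 RPKM (difference -1.09, adjusted p = 0.0088), and the split of reads between the 2 neighbours is uncertain.

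The gene itgb4 (ENSDARG00000028507, chromosome 8) encodes the chain that pairs with the product of the itga6 genes in hemidesmosomes, which tie keratin filaments of epithelial cells to the basement membrane. It had 3.43 and 2.63 RPKM in hair cells and 20.4 RPKM in the surrounding cells. Both replicates were below the surrounding cells, by 6.74-fold on average (difference -2.42, SE 0.28, adjusted p = 0.0120). Its share of the class differed less, with 30.9% and 24.8% in hair cells, against 32.3% in the surrounding cells. Among keratin epithelium markers only krt97 was at 0, in hair cell replicate 1, and the part of such cells in these levels was not tested.

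The gene itgb6, for an epithelial chain that pairs with the product of itgav in mammals, was the only integrin beta gene with higher RPKM in both hair cell replicates as deposited, and its difference turned to -0.03 under median-ratio scaling. It had 3.16 and 2.63 RPKM against 2.35 RPKM, and the difference of 0.21 on the deposited scale was not called (SE 0.28, adjusted p = 0.587). It made up 28.5% and 24.8% of the class in hair cells, against 3.72% in the surrounding cells.

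The gene itgb2, for the beta chain of leukocyte integrins, had 1.26 and 1.36 RPKM in hair cells and 4.02 RPKM in the surrounding cells (difference -1.12, adjusted p = 0.0433). Leukocyte markers were called lower for 6 of 8 tested and higher for lyz, none of the 10 was at 0 in any sample, and their summed level was 70.0 and 52.1 RPKM against 1081 RPKM. Of the latter, cd74a and cd74b made up 1056 RPKM, and the other 8 markers summed to 34.6 and 25.3 RPKM in hair cells and 24.9 RPKM in the surrounding cells. Without lyz as well, the sums were 3.17 and 3.12 RPKM against 24.2 RPKM. Of the leukocyte markers called lower, coro1a, lcp1 and ptprc were below 1 RPKM in both hair cell replicates. At such levels 69.3% of all genes tested were called lower, against 18.0% at any level, where 17.7% were called higher. The part of leukocytes in the levels of itgb2, ITGAL and itgae.2 was not tested. The gene itgb5 had 0.754 and 1.94 RPKM in hair cells and 6.55 RPKM in the surrounding cells. Both replicates lay below the surrounding cells, and with replicates 2.58-fold apart the difference of -1.73 was not called (SE 0.44, adjusted p = 0.0547). The gene itgb8 had 0.0836 and 0.220 RPKM against 1.06 RPKM, and its difference of -0.84 was under the threshold of size (adjusted p = 0.0230). Products of itgb5 and itgb8 pair with that of itgav in mammals.

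The binding protein gene itgb1bp1 had 13.2 and 11.7 RPKM in hair cells and 15.0 RPKM in the surrounding cells, and was not called (difference -0.25, adjusted p = 0.443).

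**Figure D2:**
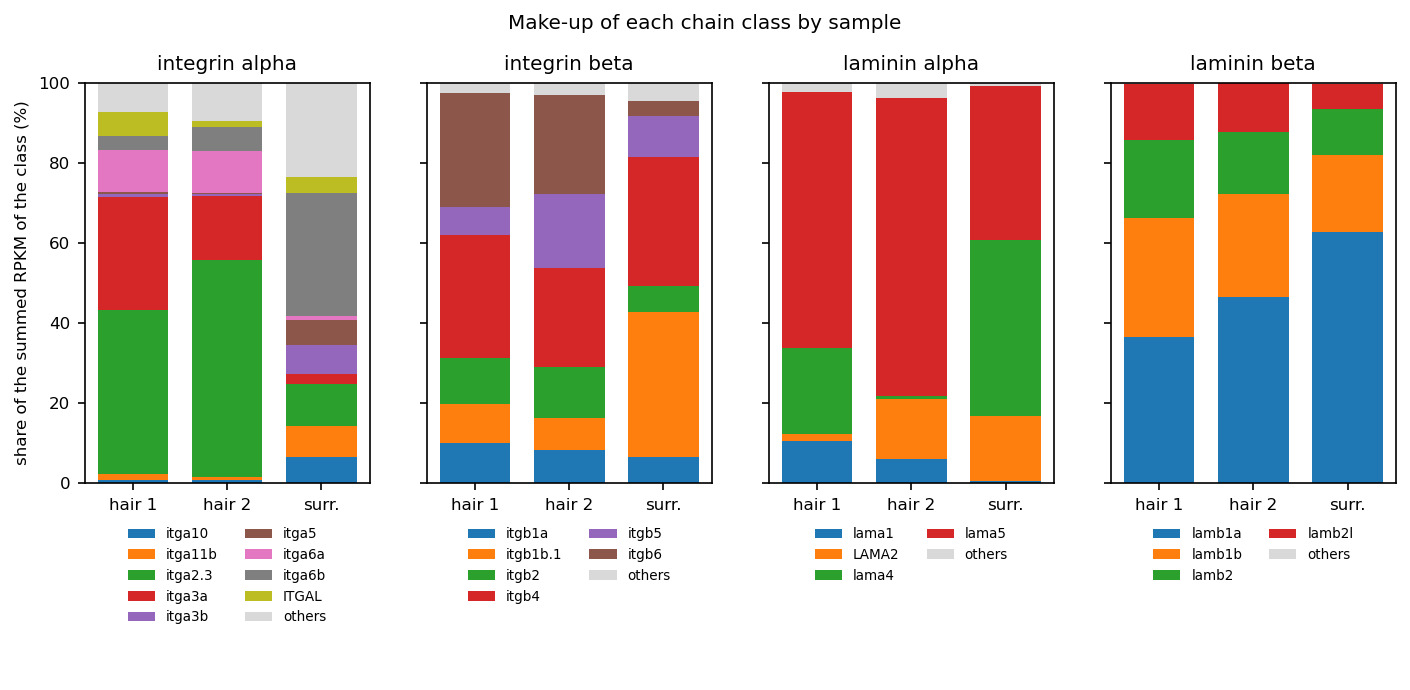
Share of each gene in the summed RPKM of its class, for integrin and laminin alpha and beta chains, in percent, for hair cell replicates 1 and 2 and the surrounding cells, with small contributions joined as others. In the integrin alpha class itga2.3 made up 40.9% and 54.3% in hair cells, against 10.6% in the surrounding cells, and in the laminin alpha class lama5 made up 64.1% and 74.6% in hair cells, against 38.5% in the surrounding cells.

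Laminin chains were tested for 10 of 13 genes. None was called higher, 6 were called lower and 4 were not called, and the median difference over all 13 was -1.06. Of those called lower, only lamb1a reached 1 RPKM in a hair cell replicate. Below that level in both replicates 69.3% of all genes tested were called lower. The summed level of the laminin chains was 13.8 and 11.4 RPKM in hair cells and 73.3 RPKM in the surrounding cells. The surrounding cells had more than both hair cell replicates for 11 of the 13, the exceptions being lama1 and lamb2l.

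Among the laminin gamma chains, of which each trimer holds a single copy, lamc3 and lamc1 were called lower. The gene lamc3 (ENSDARG00000093572, chromosome 5) had 0.520 and 0.0889 RPKM in hair cells and 21.3 RPKM in the surrounding cells. Its hair cell replicates were 5.85-fold apart, and both lay far below the surrounding cells (difference -4.12, SE 0.34, adjusted p = 0.0080). The gene lamc1, for the gamma chain of most laminins, had 0.389 and 0.620 RPKM in hair cells and 2.82 RPKM in the surrounding cells (difference -1.35, adjusted p = 0.0209).

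Alpha chains of laminin, which bear the sites that integrins and dystroglycan bind, had a summed level of 2.93 and 2.56 RPKM in hair cells and 13.1 RPKM in the surrounding cells. The gene lama5, for a chain widespread in epithelial basement membranes, had 1.88 and 1.91 RPKM in hair cells and 5.03 RPKM in the surrounding cells. It was the laminin alpha gene of highest level in both hair cell replicates, with 64.1% and 74.6% of the class, and its difference of -1.06 was not called (SE 0.27, adjusted p = 0.0545). The gene lama4, for a chain found in vessel walls, had 0.631 and 0.0157 RPKM in hair cells and 5.73 RPKM in the surrounding cells. The hair cell replicates were 40.1-fold apart, with 125 and 10 reads, and both lay below the 1224 reads of the surrounding cells (difference -2.39, SE 0.38, adjusted p = 0.0214).

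Endothelial markers were called lower for 7 of 9 tested, with a summed level of 2.44 and 2.79 RPKM in hair cells and 34.8 RPKM in the surrounding cells. Those called were all below 1 RPKM in both hair cell replicates and were tested only because the surrounding cells reached 1 RPKM. At such hair cell levels 69.3% of all genes tested were called lower. Of the 10 listed, cldn5b was at 0 in both hair cell replicates, and fli1a, egfl7 and pecam1 were at 0 in replicate 2. In replicate 1 fli1a stood at 0.372 RPKM, egfl7 at 0.207 RPKM and pecam1 at 0.0131 RPKM. Also higher in replicate 1 were flt4, kdr and cdh5. Replicates 1 and 2 had 0.615 and 0.0879 RPKM for flt4, 0.0407 and 0.00729 RPKM for kdr, and 0.0642 and 0.0215 RPKM for cdh5. The markers tie1, kdrl and tek were instead higher in replicate 2, with 0.144 and 0.836 RPKM for tie1, 0.405 and 0.703 RPKM for kdrl, and 0.579 and 1.13 RPKM for tek in replicates 1 and 2. Their part in the gap between the hair cell replicates in lama4 was not tested.

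The gene LAMA2, for the alpha chain of muscle and Schwann cell laminin, had 0.0495 and 0.385 RPKM in hair cells and 2.14 RPKM in the surrounding cells. Its replicates were 7.78-fold apart in the other direction, with 4 and 100 reads (difference -1.38, SE 0.23, adjusted p = 0.0247). The gene model of LAMA2 held 2535 bases, against 3792 to 11542 for the other laminin alpha genes. Schwann cell markers were called lower for 4 of 8 tested, with a summed level of 81.0 and 63.4 RPKM against 206 RPKM. Of these sums pmp22a made up 7.08 and 4.92 RPKM against 112 RPKM. The uncalled mbpa had 41.8 and 32.6 RPKM against 35.5 RPKM. Of the 4 called lower, cnp and erbb3b were below 1 RPKM in both hair cell replicates. Muscle markers were called lower for 6 of 8 tested and higher for desma, with a summed level of 15.3 and 18.2 RPKM against 58.7 RPKM. Of the muscle markers called lower, only actc1b reached 1 RPKM in a hair cell replicate. Below that level in both replicates 69.3% of all genes tested were called lower, so the filter bears on these counts. At any level 18.0% were called lower and 17.7% higher. None of the markers of either list was at 0 in any sample, and their part in the level of LAMA2 was not tested.

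Beta chains of laminin had summed levels of 9.98 and 8.11 RPKM in hair cells and 21.7 RPKM in the surrounding cells. The gene lamb1a (ENSDARG00000101209, chromosome 25) had 3.65 and 3.78 RPKM in hair cells and 13.6 RPKM in the surrounding cells, and was called lower (difference -1.63, SE 0.25, adjusted p = 0.0197). Its copy lamb1b (chromosome 4) had 2.96 and 2.08 RPKM against 4.17 RPKM and was not called (difference -0.57, adjusted p = 0.239). The copy lamb1a thus made up 55.2% and 64.5% of the summed level of both in hair cells, against 76.6% in the surrounding cells. The gene lamb2, whose product is a chain of synaptic and kidney basement membranes in mammals, had 1.93 and 1.27 RPKM in hair cells and 2.50 RPKM in the surrounding cells (adjusted p = 0.315). Its relative lamb2l had 1.42 and 0.988 RPKM against 1.35 RPKM, and here the groups overlapped (adjusted p = 0.768).

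Among the proteins that bind laminin, agrn stood apart in level. Agrin is a proteoglycan that clusters receptors at the nerve-muscle synapse, and its gene agrn (ENSDARG00000079388, chromosome 23) had the highest level of the 55 in both hair cell replicates. It had 21.3 and 17.5 RPKM in hair cells and 20.6 RPKM in the surrounding cells. The surrounding cells lay between the 2 hair cell replicates (difference -0.09, SE 0.24, adjusted p = 0.80). Without agrn the nidogen and perlecan genes were low in hair cells. The perlecan gene hspg2 had 0.451 and 0.295 RPKM in hair cells and 3.16 RPKM in the surrounding cells (difference -1.60, adjusted p = 0.0128). The nidogen gene nid2a had 0.0788 and 0.103 RPKM against 1.89 RPKM (difference -1.41, adjusted p = 0.0084). Both of these genes were called lower, and both were tested only because the surrounding cells reached 1 RPKM. The gene nid1a had 0.276 and 0.143 RPKM against 1.00 RPKM and was under the threshold of size (difference -0.73, adjusted p = 0.0303).

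The other 19 genes stayed below 1 RPKM in every sample and were not tested, and the highest value among them was the 0.739 RPKM of itga4 in the surrounding cells. The surrounding cells had more than both hair cell replicates for 13 of them and less than both for 3, lama1, itga8 and NID1 (2 of 2). The gene lama1, for the alpha chain of the first laminin of the embryo, had 0.308 and 0.155 RPKM in hair cells and 0.0547 RPKM in the surrounding cells. The gene itga8 had 0.231 and 0.418 RPKM against 0.147 RPKM, and NID1 (2 of 2) had 0.411 and 0.153 RPKM against 0.134 RPKM. The gene lama3, for an alpha chain of epithelial laminin in mammals, had 0.0664 and 0.0954 RPKM in hair cells and 0.107 RPKM in the surrounding cells. Levels of itgae.1, itga1, itga11a, ITGB1BP2, itga2b, nid2b, itgam, itgb3a and itgb7 were 0.253 to 0.704 RPKM in the surrounding cells and at most 0.316 RPKM in hair cells, and those of itgb3b and lamb4 were below 0.1 RPKM throughout. The remaining genes of the 19 were itga2.1, itga6l and ITGA6 (4 of 4).

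The difference between the hair cell replicates was smaller than that between the groups for 33 of the 36 tested genes on the log2(RPKM + 1) scale. This count is no measure of reproducibility, because 17 of the 36 were tested only where the surrounding cells were high. The scale also shrinks the gap between low replicates, which was 0.68 for lama4 at 40.1-fold apart. The share over all genes tested was not computed. The difference between replicates had a median size of 0.17 and was largest for ITGAL, at 0.99. On the RPKM scale the replicates were at least 2-fold apart for 11 of the 36 genes, and replicate 1 was the higher for 23.

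Genes that act with these receptors and matrix proteins were taken from 5 lists. The first holds adaptors that bind integrin tails and link them to actin. Of 24 tested out of 28, 14 were called lower and none higher, with a median difference of -1.24. Over all genes tested 18.0% were called lower and 17.7% higher. Of the adaptors called lower, parvab, tns2b, src and parvg were below 1 RPKM in both hair cell replicates. At such levels 69.3% of all genes tested were called lower. The parvin gene parvab, whose product binds integrin-linked kinase, had 0.432 RPKM in each hair cell replicate and 11.8 RPKM in the surrounding cells (difference -3.16). The talin gene tln1, whose product activates integrins, had 1.22 and 1.59 RPKM against 8.64 RPKM (difference -2.01). The paxillin gene pxna, for an adhesion scaffold, had 1.66 and 2.35 RPKM against 10.6 RPKM (difference -1.96). Their adjusted p values were 0.0077, 0.0174 and 0.0213.

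The second list holds partners in the hemidesmosome, and 4 of 5 tested were called lower, with a median difference of -2.13. Of these 4, cd151 and narrowly col17a1b were below 1 RPKM in both hair cell replicates. At such levels 69.3% of all genes tested were called lower, against 18.0% at any level. The plectin gene plecb, whose product links integrin to keratin, had 2.06 and 1.31 RPKM in hair cells and 25.3 RPKM in the surrounding cells (difference -3.31, adjusted p = 0.0091). The collagen gene col17a1b, for a transmembrane protein of hemidesmosomes, had 0.689 and 1.00 RPKM against 8.42 RPKM (difference -2.36, adjusted p = 0.0126). The tetraspanin gene cd151, whose product associates with laminin-binding integrins, had 0.268 and 0.429 RPKM against 4.90 RPKM (difference -2.13, adjusted p = 0.0095). Keratin epithelium markers moved in the same direction, as given above.

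Other basement membrane genes were called in both directions. Of 15 tested out of 24, 7 were called lower and 3 higher, with a median difference of -0.99. Over all genes tested 18.0% were called lower and 17.7% higher. Below 1 RPKM in both hair cell replicates the share called lower was 69.3%. Of the listed genes called lower, only col4a5 reached 1 RPKM in a hair cell replicate, so the filter bears on this count. The most negative differences on the log2(RPKM + 1) scale among those called were of tinagl1, with 0.820 and 0.538 RPKM against 14.7 RPKM, the netrin gene ntn4, with 0.760 and 0.179 RPKM against 6.62 RPKM, and frem3, with 0.185 and 0.419 RPKM against 3.19 RPKM (differences -3.23, -2.40 and -1.69, adjusted p from 0.0084 to 0.0183). The genes called higher were SMOC1, for a calcium-binding matrix protein, and col18a1 and col15a1b, for collagens that carry sugar chains. They had 5.19 and 6.44 RPKM against 0.265 RPKM (difference 2.42), 8.20 and 8.73 RPKM against 1.87 RPKM (difference 1.72), and 1.99 and 2.81 RPKM against 0.465 RPKM (difference 1.21, adjusted p = 0.0461).

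The dystroglycan complex is the other main laminin receptor of cells. From this list, which also holds enzymes that add the laminin-binding sugar to dystroglycan, 18 of 24 genes were tested, 5 were called lower and 2 higher, and the median difference was -0.43. Of those called lower, sgcd and utrn were below 1 RPKM in both hair cell replicates. At such levels 69.3% of all genes tested were called lower. The shares over all genes tested at any level were 18.0% lower and 17.7% higher. The 2 called higher were the sarcoglycan gene sgcb, with 29.1 and 31.3 RPKM against 4.05 RPKM (difference 2.63, adjusted p = 0.0078), and the dystrobrevin gene dtna, with 4.69 and 4.17 RPKM against 0.251 RPKM (difference 2.12, adjusted p = 0.0140). Of those called lower, the sarcoglycan gene sgcd had 0.0879 and 0.0684 RPKM in hair cells and 5.50 RPKM in the surrounding cells (difference -2.59, adjusted p = 0.0072). The gene bcam, for a laminin receptor of the immunoglobulin family, had 21.3 and 20.9 RPKM in hair cells and 93.8 RPKM in the surrounding cells (difference -2.10, adjusted p = 0.0088).

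The last list holds soluble and interstitial ligands of integrins, and of 15 tested out of 29, 9 were called lower and 2 higher, with a median difference of -1.33. Over all genes tested 18.0% were called lower and 17.7% higher. Below 1 RPKM in both hair cell replicates the share called lower was 69.3%. Of the ligand genes called lower, only thbs1b, tgfb3 and tgfb2 reached 1 RPKM in a hair cell replicate, so the filter bears on this count. The most negative differences on the log2(RPKM + 1) scale were of the thrombospondin gene thbs1b, with 11.9 and 14.3 RPKM against 126 RPKM, the periostin gene postnb, with 0.115 and 0 RPKM against 6.80 RPKM, and the growth factor gene tgfb3, with 25.6 and 23.0 RPKM against 99.8 RPKM (differences -3.18, -2.88 and -2.00, adjusted p from 0.0072 to 0.0101). The gene thbs1b is also 1 of the 8 thrombocyte markers, of which 2 of 5 tested were called lower, with summed levels of 16.5 and 17.6 RPKM against 140 RPKM. Without thbs1b the list had 1 of 4 called lower and summed levels of 4.61 and 3.32 RPKM against 13.2 RPKM. The genes called higher were tnr, for a tenascin of the nervous system, with 11.4 and 8.69 RPKM against 0.276 RPKM (difference 3.10, adjusted p = 0.0095), and edil3b, for a secreted protein that binds integrins, with 3.84 and 4.25 RPKM against 0.944 RPKM (difference 1.37, adjusted p = 0.0335). Fibroblast markers were called lower for 8 of 9 tested, with summed levels of 61.9 and 58.2 RPKM in hair cells and 447 RPKM in the surrounding cells, and only twist1a was at 0, in replicate 1. Of those called lower, only dcn, col5a1 and col1a2 reached 1 RPKM in a hair cell replicate. The part of fibroblasts in the levels of the matrix genes was not tested.

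**Figure D3:**
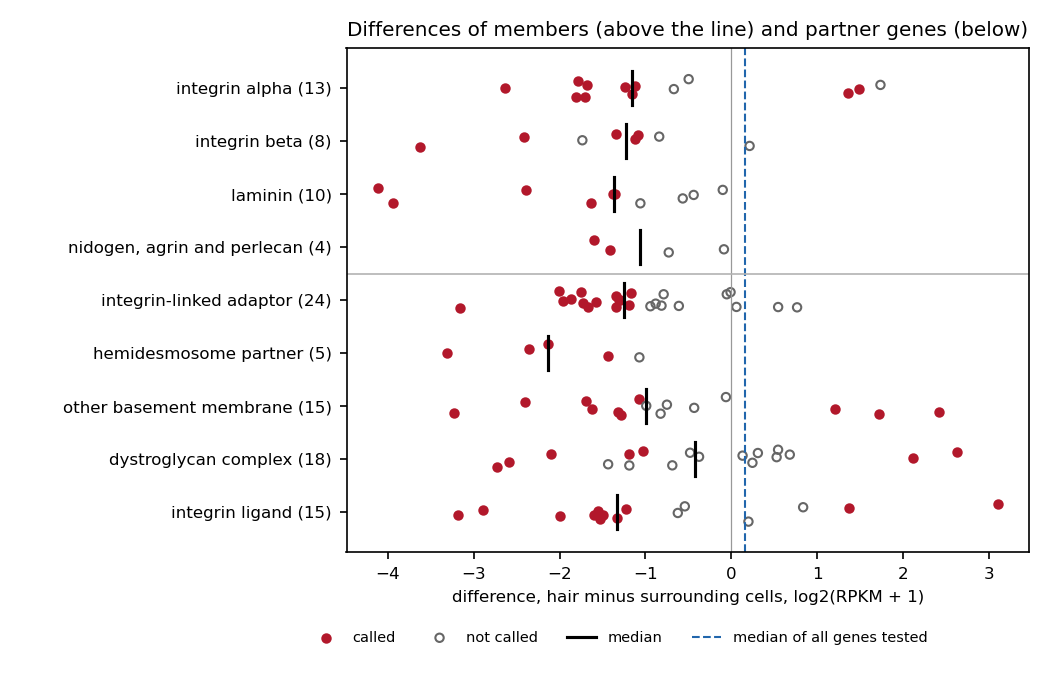
Log2 differences, hair cells minus surrounding cells on log2(RPKM + 1), for the tested genes of each class and, below the horizontal line, of the 5 partner lists, with the number of genes in parentheses. Filled points were called, open points were not, black bars are medians and the dashed line is the median of all genes tested, 0.15. Among the 5 partner lists the hemidesmosome list had the lowest median, -2.13, and calls above 0 lay in the integrin alpha class and in 3 of the partner lists.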

How the data were processed

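RNA from 3 samples (2 hair cell replicates, 1 surrounding cell sample) was prepared with Qiagen miRNeasy columns and amplified as full-length cDNA by Clontech SMART-Seq, per the labels. The authors deposited RPKM values for 6 technical replicates, on genome build GRCz10 per the submitters' processing notes. The names of a technical pair hold the same index sequence, so a pair may be a single library. Not given in the sources used here are the aligner, counter, annotation and strand setting. RPKM is scaled only to mapped reads and length, so abundant transcripts lower all others. The 4 columns of the authors' averages and deviations were not used. Technical replicates were averaged. Depth and reads were recovered from the steps between RPKM values, and all 15803 tested genes gave whole reads within 0.001 of a read. The smallest fitting gene length was taken, so that a gene's reads can be understated by the same factor everywhere.

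Values were fitted with limma 3.58.1 in R 4.3.3, with a mean-variance trend, on log2(RPKM + 1) over genes of at least 1 RPKM in a sample, with Benjamini-Hochberg adjustment over all of them. The fit had 1 residual degree of freedom (3.42 after moderation), and the lone surrounding cell sample was assumed to vary like hair cells. With 2 samples against 1, exact permutation allows no p below 0.333. The p-values rest on the spread between the 2 hair cell samples, moderated across genes, and on no spread of surrounding cells. The labels do not say that replicates came from separate fish. Alternatives were other pseudocounts, filters and scalings, no trend, limma-voom on recovered reads, single technical replicates and single hair cell replicates.

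The genes and lists were chosen with earlier results of these data known. Every gene with at least 1 RPKM in a sample was named with its values, the others by value or range, and from each partner list the 3 called genes of largest difference in each direction, and 2 genes that this rule takes in are not reported here. Symbols are those of the table, and 54 of the 55 identifiers were in a current table of gene names. A planned comparison of protein sequences was not made.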

Additional observations from a re-analysis of the deposited data

How the results depend on the processing

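No gene called changed direction under the 10 alternatives of scale, filter or test, the uncalled itgb6 turned to -0.03 with median-ratio scaling, and itgb1b.1, itgb4, lamb1a and lamc3 were called lower in all of them. The count called higher, 2 as reported, was 0 with a pseudocount of 5 RPKM and 0 without the filter on low values, where limma then called 1464 and 1740 genes of the whole table higher and lower. It was 1 with median-ratio scaling and 1 with technical replicate 1 alone, itga2.3 being lost in both, and it was 3 with limma-voom. The rule of size took 0 as higher with a pseudocount of 5 RPKM. The count called lower, 21 as reported, was 7 with a pseudocount of 5 RPKM, 12 without the filter and 9 with a filter of 5 RPKM, which left 13 genes to test. By the rule of size 6 and 9 were lower with the pseudocount and the filter of 5 RPKM. The median of -1.20 was -2.28 and -0.45 with pseudocounts of 0.1 and 5 RPKM, -0.69 without the filter, -1.73 with the filter of 5 RPKM, -1.40 with median-ratio scaling, -1.26 without mitochondrial genes, -2.49 with limma-voom, -1.22 and -1.31 with technical replicates 1 and 2, and -1.19 and -1.22 with a single hair cell replicate. The integrin alpha median turned to 1.36 with the filter of 5 RPKM, which leaves fewer genes. A pseudocount of 0.1 RPKM lost the calls of LAMA2, itgb1a, itgb2, lama4 and lamc1. Median-ratio scaling moved the median of all genes from 0.15 to -0.14 and the share of calls that were higher from 49.5% to 38.2%, and the filter of 5 RPKM moved that share to 61.3%; itgb5 and lama5 were called lower under both, and itga3a higher under the filter. Among the partner lists the pseudocount of 5 RPKM lowered the counts called lower from 14 to 6 for adaptors, 7 to 2 for basement membrane genes, 5 to 3 for the dystroglycan list (3 also with a pseudocount of 0.1 RPKM and without the filter) and 9 to 3 for ligands, and left 1 called higher in each of the last 3 lists. Without the filter the adaptors had 4 and the basement membrane genes 3 called lower and the ligands 1 higher. With the filter of 5 RPKM the basement membrane genes had 2 and the ligands 4 called lower, and the dystroglycan and ligand lists 1 higher each.

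With a single hair cell replicate the uncalled agrn and lamb2l turned to 0.05 and 0.04 without replicate 2. No paired analysis was possible because the groups share only 1 replicate number. With 1 surrounding cell sample its spread is unknown, and genes of a few reads in hair cells are limited by depth.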
